A study of Mus musculus with 8 samples.

Results

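Cytosolic ribosomal protein genes encode the protein subunits of the ribosome that works in the cytosol. They were taken by their symbols in the mouse GENCODE annotation: protein-coding genes named Rpl or Rps followed by a digit, with Rpsa, Rplp0, Rplp1 and Rplp2, and without the ribosomal S6 kinases and entries marked as pseudogenes. All 86 such genes were found among the 19896 gene IDs present in both deposited tables. By role, 46 belonged to the large subunit and its stalk, 31 to the small subunit, 8 were paralogs that resemble a standard subunit gene, and Rps19bp1 carries the name only, as it encodes a protein that binds RPS19. Cells must keep roughly equal amounts of each subunit, since every ribosome takes 1 copy of nearly all of them. Their mRNAs are among the most abundant of a growing cell and typically begin with a C followed by a run of C and T, the terminal oligopyrimidine (TOP) tract, through which mTOR and LARP1 adjust their translation and stability. Pluripotent stem cells are known for high expression of the ribosome biogenesis genes that MYC and MYCN drive.

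RNA of E14 mouse embryonic stem cells, an established line, was sequenced in 8 libraries that form 4 groups of 2. Cct7 KD and Cct5 KD cells expressed, under doxycycline, a short hairpin RNA that targets Cct7 or Cct5, and the controls, Cct7 KD Ctr and Cct5 KD Ctr, carried the same vector without a hairpin. Both targets encode subunits of CCT, the chaperonin that folds actin, tubulin and many WD40 proteins, and the study asked whether these subunits hold back a passage from pluripotency to totipotency. All 4 groups, controls included, were infected with virus, kept under selection for 14 days (puromycin, 0.5 µg/ml) and then induced for 2 days (doxycycline, 2 µg/ml), with culture mainly in serum plus LIF. Positive clones were picked after selection, and no source used here says how many clones stand behind a group. Nothing says that replicates are separate cultures, so p-values measure only the spread between these libraries.

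Cct5 KD is not an independent measurement. Each of its values for a ribosomal protein gene equals a fixed multiple of its value in the Cct7 KD library with the same number, the same multiple for every gene, plus an amount of 0 or more that is called the remainder here. No source used here says how this arose, and whether the remainder is a library of Cct5 knockdown cells was not tested. Cct5 KD is therefore described mainly through the remainder, set against Cct5 KD Ctr. All levels are FPKM, fragments normalised to transcript length and library size, after each library was scaled so that its median ratio to the mean control library is 1. Changes are differences in log2(scaled FPKM + 1) with the standard error (SE) from limma, and a gene counts as changed at a Benjamini-Hochberg adjusted p under 0.05 over all genes tested. FPKM carries no counts, so no counting interval is given.

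The TOP tract was looked up at the start sites of the RefSeq annotation on GRCm38.p6. The sequences show the 15 bases before the annotated start and the first 15 transcribed bases for genes whose changes are described further on, with the tract in capitals.
Rps27 (chr3:90213634-90213663, minus strand): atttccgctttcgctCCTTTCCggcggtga
Rps15a (chr7:118116133-118116162, minus strand): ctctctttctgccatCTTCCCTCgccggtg
Rps10 (chr17:27635230-27635259, minus strand): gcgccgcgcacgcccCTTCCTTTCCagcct
Rplp2 (chr7:141447636-141447665, plus strand): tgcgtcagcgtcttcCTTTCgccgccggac
Rpl22l1 (chr3:28805493-28805522, plus strand): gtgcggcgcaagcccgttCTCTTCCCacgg
Rpl39 (chrX:37085208-37085237, minus strand): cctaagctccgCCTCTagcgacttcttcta
Rpl27 (chr11:101442230-101442259, plus strand): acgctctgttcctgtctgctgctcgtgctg
Rpl10l (chr12:66284387-66284416, minus strand): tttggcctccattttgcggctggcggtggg
Rpl39l (chr16:10170213-10170242, plus strand): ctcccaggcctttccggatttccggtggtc
Rpl7l1 (chr17:46782642-46782671, minus strand): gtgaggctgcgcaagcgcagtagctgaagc
A tract, read as a C followed by at least 4 C or T on the gene's strand and starting within 5 bases of the annotated start, stood in 32 of 78 start sites of these genes (41.0%), against 18.3% of 32851 start sites of all genes. A tract exactly at the start stood in 17.9% of them, against 2.5% of all. In Rps27, Rps15a, Rps10 and Rplp2 it began at the annotated first base. The paralog Rpl22l1 held one 3 bases downstream, whereas the windows of Rpl10l, Rpl39l and Rpl7l1 held none. Of other sequences in the 250 bases before the start, the ETS factor motif CCGGAAG (either strand) stood in 25.6% of the ribosomal protein start sites against 6.9% of all. The E-box CACGTG stood in 9.0% against 6.0% and TATAAA, either strand, in 5.1% against 12.4%. A match is a description of letters, and annotated starts can lie some bases off the used ones.

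Each target was low in the deposited columns of its own knockdown. Cct7 was 268 and 279 in the control and 13.5 and 16.6 in Cct7 KD, and Cct5 was 370.3 and 368 in its control and 44.2 and 45.7 in Cct5 KD. Cct5 does not follow the relation between the Cct5 KD and Cct7 KD columns: it was 263 and 253 in Cct7 KD, more than the Cct5 KD value, and is 1 of 15 genes for which no remainder could be formed. Its low value is therefore no check on the remainder, in which Cct7 was 776 and 773, against 279 and 278 in the Cct5 control. Among 10 pluripotency markers, which were all tested, 10 fell in Cct7 KD and 9 in the remainder, while of all genes tested 36.2% and 38.2% fell. The summed level of these markers was 4588 to 4809.7 in the 4 controls, 991 and 994 in Cct7 KD, and 3112 and 3102 in the remainder. Their median log2 change was -2.09 in Cct7 KD and -2.01 in the remainder, where single markers ranged from -3.54 to 0.047. Fibroblast (feeder) markers summed to 10.2 to 11.5 in all libraries, but 2 of the 10 could be tested and they went opposite ways, Pdgfrb by 1.35 in Cct7 KD and 1.65 in the remainder and Thy1 by -0.72 and -0.75. Trophoblast markers summed to 29.5 to 31.3 in controls, 198 and 199 in Cct7 KD, and 20.8 and 20.8 in the remainder, mostly through the keratins Krt8 and Krt18. Of 10 such markers, 5 could be tested in Cct7 KD, where 3 rose and 2 fell. In the remainder 3 could be tested, and 3 fell. Primitive endoderm markers summed to 229 to 236 in controls, 291 and 297 in Cct7 KD, and 245 and 245 in the remainder. Of 10 such markers, 7 could be tested in Cct7 KD, where 6 rose and 1 fell. In the remainder 6 could be tested, of which 3 rose and 3 fell. Over all genes tested 45.1% rose in Cct7 KD and 45% in the remainder. Hprt, the purine salvage enzyme whose loss marks E14TG2a and related sublines, was 159 to 164 in controls, 1.05 and 0.729 in Cct7 KD and 0.497 and 0.69 in the remainder. The part of these differences in the ribosomal protein results was not tested, and in bulk RNA fewer cells of a type and less RNA per cell cannot be told apart.

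In control cells ribosomal protein mRNAs were among the most abundant. The 77 standard subunit genes had a median of 932 scaled FPKM over the 4 controls, 74 of them stood at 100 or more, and 35 above 1000. Highest were Rpl23a (3383), Rpl26 (3129), Rps24 (2806), Rps2 (1985) and Rpl7a (1771). The lowest were Rpl24 (0.546), Rps10 (15.6) and Rpl13a (46.0), whose proteins a ribosome needs as much as the others. These 3 were also the standard genes with more than 20% of exon bases inside another annotated gene on the same strand: Gm28037 covers 47.0% of Rpl24, RPS10-NUDT3 20.6% of Rps10, and Gm45713 with small RNA genes 35.4% of Rpl13a. No source used here says how the authors' counting treated fragments in overlapping or near-identical genes. For 65 of the 86 genes, at least 20% of all 100-base stretches of the transcripts also occur in another annotated gene, mostly a processed pseudogene, so the levels of those genes are uncertain to that extent. Rpl24 and Rpl13a are named here after their values were seen. Rpl24 lay under the mean of 1 FPKM required for testing, which leaves 85 genes tested.

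Together the 86 genes took up 15.9%, 15.9%, 15.5% and 16.3% of all FPKM in the 4 control libraries. Their share was 13.8% and 13.6% in Cct7 KD, below every control. In the remainder it was 26.2% and 26.2%, above every control. The Cct5 KD libraries as deposited, a mixture of these by the relation given above, stood at 17.4% and 17.2%. With 2 libraries a group, an exact two-sided permutation test of a single value cannot go below p = 0.333, so no test of the share is given. Mitochondrial ribosomal protein genes, encoded in the nucleus as well, took 0.532% to 0.547% in controls, 0.416% and 0.415% in Cct7 KD, and 0.391% and 0.391% in the remainder, and so were lower in both.

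**Figure D1:**
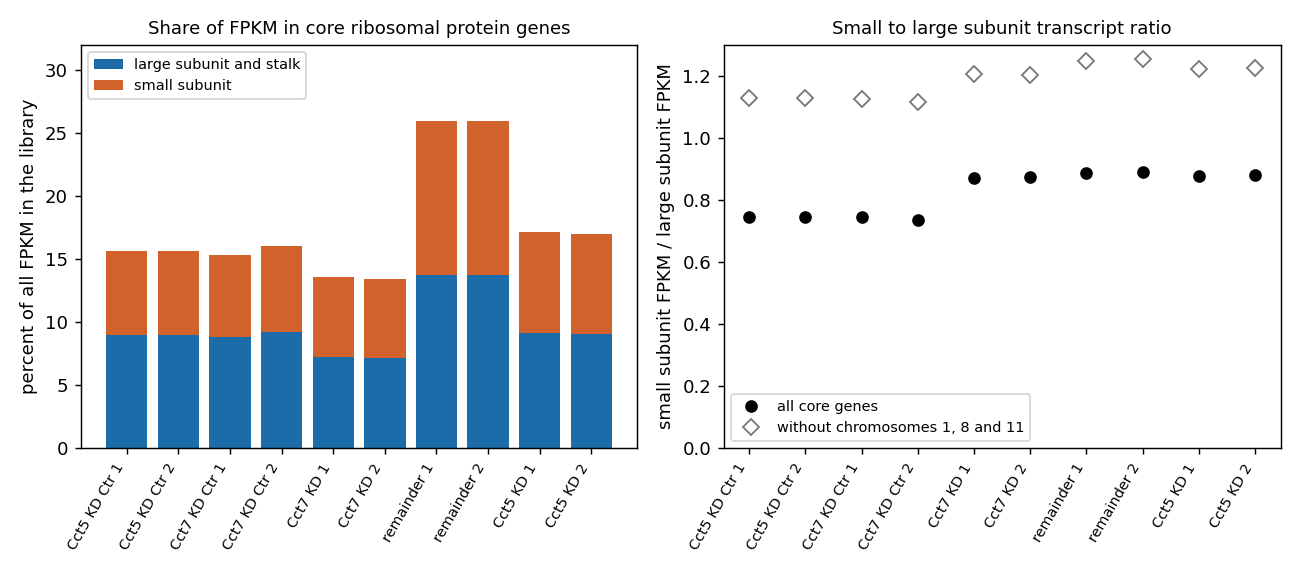
Left, percent of all FPKM in each library taken by standard ribosomal protein genes (large subunit with stalk in blue, small subunit in orange), a stacked bar per library. Right, the ratio of summed small to summed large subunit FPKM per library, for all standard genes and without those on chromosomes 1, 8 and 11. The share was lowest in the Cct7 KD libraries and highest in the remainder, and the ratio was higher in both than in any control.

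In Cct7 KD, ribosomal protein mRNAs fell by a modest amount across the large subunit and, less widely, across the small subunit. Of 85 tested genes, 67 fell, 6 rose and 12 did not pass, with a median log2 change of -0.29, whereas over all 13427 genes tested 81.3% passed, 36.2% lower and 45.1% higher, with a median of 0.07. Without genes on chromosomes 1, 8 and 11, 55 of 73 fell and 6 rose. By raw position, 71 of the 86 had both Cct7 KD libraries below both controls, 7 had both above, and 8 overlapped. The same count over all genes, of which 81.3% passed the test, is not given here, so nothing is read from it. Only 1 gene changed by more than 2-fold on the log2 scale, the paralog Rpl3l, and the share of all genes at that cut is not given here. The fall was smaller where libraries were scaled to a common FPKM total, with 48 genes lower, 12 higher and a median of -0.14 against 0.21 over all genes.

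Within the large subunit and stalk, 44 of 45 tested genes fell in Cct7 KD, none rose by the limma test, and Rpl35a did not pass (median -0.39). The largest falls were those of Rpl23a, Rpl13, Rpl7 and Rpl27. Rpl23a (ENSMUSG00000058546, chromosome 11, 78180932 to 78183584, mm10), which lies at the exit of the nascent chain, stood at 3220.2 and 3520.0 in the controls and 1735 and 1648 in Cct7 KD (log2 change -0.99, SE 0.0599, limma adjusted p = 3.7e-05). Both knockdown libraries thus held about the same lowered level, 50.2% of the control mean. Rpl7 (ENSMUSG00000043716, chromosome 1, 16101295 to 16104662) stood at 1711 and 1757 in controls and 937 and 898 in Cct7 KD (log2 change -0.92, SE 0.0394, limma adjusted p = 1.2e-05). Rpl13 (ENSMUSG00000000740, chromosome 8, 123102350 to 123105244) went from 1111 and 1191 to 615 and 596 (log2 change -0.92, SE 0.0451, limma adjusted p = 1.8e-05). Rpl27 (ENSMUSG00000063316, chromosome 11, 101442298 to 101445529) went from 1038 and 1069.8 to 598 and 589 (log2 change -0.83, SE 0.0328, limma adjusted p = 9.4e-06). In all 4 genes the groups did not overlap, and all 4 lie on chromosome 1, 8 or 11. When each library was centred on the other genes of the same chromosome, an alternative chosen after the data were seen, all 45 large subunit and stalk genes fell (median -0.51). The share of all genes that passed after centring is not given here, nor further on. Rpl13 then had -0.88, Rpl7 -0.73, Rpl23a -0.67 and Rpl27 -0.51, so that Rpl27 lay at the median of its subunit and above Rpl6 (-0.75). Rpl26, another protein of the tunnel exit and the second most abundant of these mRNAs, changed by -0.80, and by -0.48 after centring, and Rpl7a by -0.44 and -0.67.

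Of 31 tested small subunit genes, 21 fell in Cct7 KD, 2 rose and 8 did not pass (median -0.22). After centring per chromosome 27 fell, none rose, and Rps2, Rps15a, Rps27 and Rps28 did not pass (median -0.41). Rps10 (ENSMUSG00000052146, chromosome 17, 27630418 to 27636669) fell most, from 17.8 and 17.0 to 9.81 and 9.14 scaled FPKM (log2 change -0.81, SE 0.0508, limma adjusted p = 4.3e-05), at a level far under that of other small subunit genes. Rps3, a protein of the mRNA entry channel, was 712 and 781 in controls and 509 and 504 in Cct7 KD (log2 change -0.56, SE 0.0495, limma adjusted p = 0.00016). None of its 100-base stretches occurs in another gene. Rps27 (ENSMUSG00000090733, chromosome 3, 90212522 to 90213651), a zinc finger protein, rose from 873 and 856 to 1091 and 1031 (log2 change 0.29, SE 0.0405, limma adjusted p = 0.001). For Rps27, however, 98.4% of the 100-base stretches occur elsewhere, and the direction turned to -0.10 after centring (limma adjusted p = 0.075). Rps15a rose from 117 and 123 to 135 and 131 (log2 change 0.15, SE 0.0351, limma adjusted p = 0.0099), a call that was lost after centring (0.032, limma adjusted p = 0.45). Rps2 (1962 and 2049 against 2008 and 1923), Rps19, the gene often mutated in Diamond-Blackfan anaemia (547 and 571 against 537 and 546), and Rpsa (906 and 944 against 911 and 897) did not pass, with limma adjusted p of 0.58, 0.27 and 0.43. Their log2 changes of -0.029, -0.045 and -0.033 became 0.12, 0.11 and 0.12 with a common FPKM total. After centring they were -0.094, -0.16 and -0.18, and Rps19 and Rpsa passed as falls (limma adjusted p = 0.0068 and 0.0073). Rps24 fell, from 2675 and 2814 to 2153 and 2121 (log2 change -0.36).

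In the remainder the same genes stood about 2-fold above control. Of 85 tested genes, 81 rose, 3 fell and Rps19bp1 did not pass, with a median log2 change of 1.02, while over all 13076 genes tested 83.2% passed, 45% higher and 38.2% lower, with a median of 0.06. All 45 tested large subunit and stalk genes rose (median 0.89), as did all 31 of the small subunit (median 1.15), and 44 of the 85 rose by at least 2-fold. The 45% of all genes is without a fold cut, and their share at 2-fold is not given here. Off chromosomes 1, 8 and 11, 69 of 73 rose. With a common FPKM total 79 rose and 4 fell, with a median of 0.77 against -0.15 over all genes. By position, 81 of the 86 had both remainder values above both Cct5 KD Ctr libraries, 3 had both below and 2 overlapped. The same count over all genes is not given here, so nothing is read from this one.

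The highest rises in the remainder were those of Rps27, Rps15a, Rpl39, Rplp1 and Rps19. Rps27 stood at 959 and 914 in the Cct5 control and 2979.8 and 2983 in the remainder (log2 change 1.67, SE 0.0279, limma adjusted p = 6.2e-07). Rps15a stood at 122 and 122 and 330.1 and 332 (log2 change 1.43, SE 0.0195, limma adjusted p = 4.7e-07). Rpl39 (ENSMUSG00000079641, chromosome X, 37082520 to 37085402), the short protein lining the exit tunnel, went from 605 and 575 to 1572 and 1576 (log2 change 1.42, SE 0.0287, limma adjusted p = 8.4e-07). In these 3 genes both remainder values were more than 2-fold above either control. Of the 100-base stretches, 98.4% in Rps27, 28.5% in Rps15a and 1.8% in Rpl39 occur in another gene. The levels of Rps27 and Rps15a are uncertain to that extent, and a copy of Rps15a that fell in the remainder is described further on. Rps19 went from 552 and 578 to 1457 and 1446 and Rpsa from 937 and 925 to 2297 and 2268. The smallest rises of standard genes were those of Rpl27 (1088 and 1116 against 1332 and 1256, log2 change 0.23, SE 0.0333, limma adjusted p = 0.0011), Rpl7 (1748 and 1722 against 2164 and 2122) and Rpl7a (1784 and 1737 against 2211 and 2218). Rpl27 changed by -0.02 with a common FPKM total, so its direction depends on the scaling. After centring per chromosome Rpl27 rose by 0.58, Rpl7 by 0.59 and Rpl7a by 0.18. The abundant Rps2 and Rps24 both rose about 2-fold, by 1.08 and 1.02, and Rpl23a and Rpl26 by 0.62 and 0.67, or by 0.96 and 1.02 after centring.

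Cct7 KD and the remainder therefore moved in opposite directions for most of these genes, and the difference of the changes was tested in 1 fit of 8 columns. The remainder was formed by subtracting a multiple of the Cct7 KD columns, but this fit treats the columns as independent. Its SE and p-values, here and further on, do not allow for that and are descriptions only. The remainder's change exceeded that of Cct7 KD in 81 of 85 genes and was below it in 3, with a median difference of 1.31. Over all 13317 genes 74.4% passed, 35.2% with the remainder higher and 39.2% with it lower, and the median was -0.03. Large differences among standard genes were those of Rpl22 (1.78, SE 0.059, limma adjusted p = 3.7e-07), Rps3 (1.63) and Rpl39 (1.62). Rpl22, an RNA-binding subunit that mice can live without, was 247 and 269.8 in its control and 194 and 187 in Cct7 KD, but 260.0 and 260.1 in the Cct5 control and 656 and 672 in the remainder. Its 100-base stretches occur in no other gene. Despite the opposite directions, standard genes that fell more in Cct7 KD rose less in the remainder: across 76 genes Pearson's r was 0.753 and Spearman's rho 0.712, and across the 64 off chromosomes 1, 8 and 11 they were 0.652 and 0.611. These are descriptions, since genes are not independent replicates and the remainder was formed by subtracting a multiple of the Cct7 KD values.

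**Figure D2:**
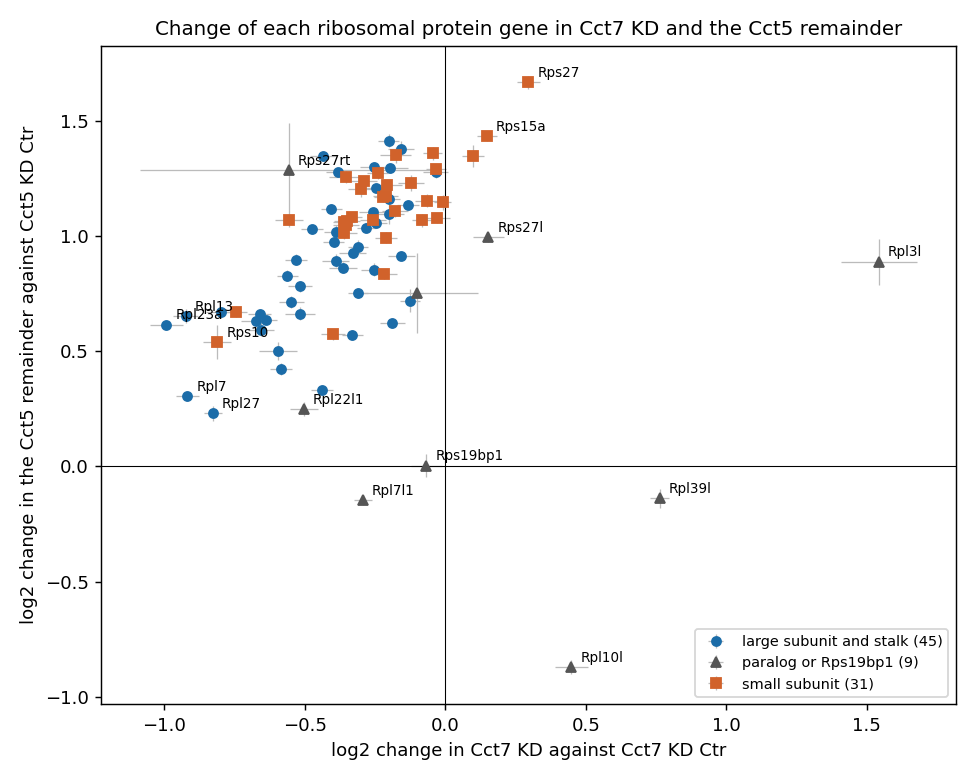
Each point is a ribosomal protein gene, placed by its log2 change in Cct7 KD (horizontal) and in the Cct5 remainder (vertical), with bars of 1 SE, for 85 tested genes. All 76 standard genes lie above 0 on the vertical axis and 73 lie below 0 on the horizontal one, while Rpl10l, Rpl39l and Rpl7l1 lie below 0 vertically.

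In the Cct5 KD columns as deposited the opposite movements of their 2 parts met. Of 85 genes, 46 rose, 22 fell and 17 did not pass, with a median of 0.10 against 0.06 for all genes, of which 83.1% passed, 45.2% higher and 37.8% lower. Rpl11 lay near 0 (0.0062, limma adjusted p = 0.81), while it fell by 0.33 in Cct7 KD and rose by 0.93 in the remainder. Without any scaling, all 85 were higher in Cct5 KD than in its control, since the FPKM total of the Cct5 KD columns is larger (745380 and 743612 against 495289 and 496418). No direction can therefore be read from the deposited Cct5 KD columns alone.

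No ribosomal protein gene passed the test between the 2 control groups. Between Cct5 KD Ctr and Cct7 KD Ctr, 0 of 85 genes passed limma's test, as did 0% of all 12760 genes, with a median of 0.02. At an unadjusted p under 0.05 there were 5 of the 85 and 2303 of all genes, and over all genes no limma adjusted p lay below 0.0599. DESeq2 and edgeR were not run because FPKM are not counts. Replicates of 1 group differed by a median of 0.087 on the log2 scale in the Cct7 controls and by 0.024 to 0.040 in the other groups.

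Proteins of the stalk recruit elongation factors to the ribosome. Rplp0, the stalk base, was 742 and 798 in its control and 678 and 672 in Cct7 KD (log2 change -0.19, SE 0.0434, limma adjusted p = 0.009), and 768 and 768 in the Cct5 control and 1196 and 1172 in the remainder (log2 change 0.62, SE 0.0204, limma adjusted p = 2.9e-06). Rplp1 was 1398 and 1501 in its control and 1296 and 1303 in Cct7 KD (log2 change -0.16), and rose from 1404 and 1492 to 3767 and 3771 in the remainder (log2 change 1.38). Rplp2 changed by -0.13 in Cct7 KD, and by 0.025 with a common FPKM total, and went from 341 and 379 to 599 and 586 in the remainder. All 3 stalk genes thus fell less in Cct7 KD than the median large subunit gene, also after centring (-0.39, -0.30 and -0.24 for Rplp0, Rplp1 and Rplp2), while in the remainder Rplp1 rose by more than its partners. Rpl5 and Rpl11 form a particle with 5S RNA that is known to bind MDM2 when ribosome assembly is disturbed. Rpl5 was 610.1 and 627 in its control and 517 and 501 in Cct7 KD (log2 change -0.28, SE 0.0328, limma adjusted p = 0.00052), and 622 and 623 in the Cct5 control and 1285 and 1271 in the remainder (log2 change 1.04, SE 0.0189, limma adjusted p = 6.7e-07). Rpl11 was 1092 and 1190.3 in its control and 913 and 900.0 in Cct7 KD, and rose to 2265 and 2219 from 1189 and 1169 in the remainder. Both genes followed the pattern of their subunit.

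Small and large subunit mRNAs were not in the same proportion in all libraries. Summed small subunit FPKM divided by summed large subunit FPKM was 0.746, 0.745, 0.743 and 0.736 in the 4 controls. It was 0.871 and 0.873 in Cct7 KD and 0.885 and 0.891 in the remainder, so that both moved the same way although the total moved in opposite ways. The subunits also differ in chromosome position: 11 of 46 large subunit and stalk genes but 1 of 31 small subunit genes lie on chromosomes 1, 8 and 11. Without those chromosomes the ratio was 1.129, 1.128, 1.124 and 1.114 in controls, 1.20 and 1.20 in Cct7 KD, and 1.25 and 1.25 in the remainder. The groups still did not overlap, with a smaller distance between them in relative terms.

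Genes of chromosomes 1 and 11, and only slightly those of chromosome 8, were low as a whole in Cct7 KD and in the remainder. Protein-coding genes outside the ribosomal set had median log2 changes in Cct7 KD of -0.33 on chromosome 11, -0.20 on chromosome 1 and -0.016 on chromosome 8, against 0.02 to 0.35 on the other 17 numbered or X chromosomes. In the remainder the medians were -0.40, -0.28 and -0.097, against 0.03 to 0.25. The 7 ribosomal protein genes on chromosome 11, which are Rpl19, Rpl23, Rpl23a, Rpl26, Rpl27, Rpl38 and Rps27a, all fell in Cct7 KD (median -0.74) and all rose in the remainder (median 0.62). After centring each library on the other genes of the same chromosome, the standard genes of chromosome 11 had a median of -0.43 in Cct7 KD against -0.46 elsewhere, and of 0.96 in the remainder against 0.97 elsewhere. The SD over standard genes went from 0.251 to 0.191 in Cct7 KD and from 0.302 to 0.260 in the remainder. After centring 74 ribosomal protein genes fell and 3 rose in Cct7 KD, and 80 rose and 4 fell in the remainder. The falls in the remainder include Rps19bp1 (-0.15), which is no ribosomal subunit. The same counts over all genes after centring are not given here, so nothing is read from these. Whether the cell lines differ in the copy number of these chromosomes was not tested.

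**Figure D3:**
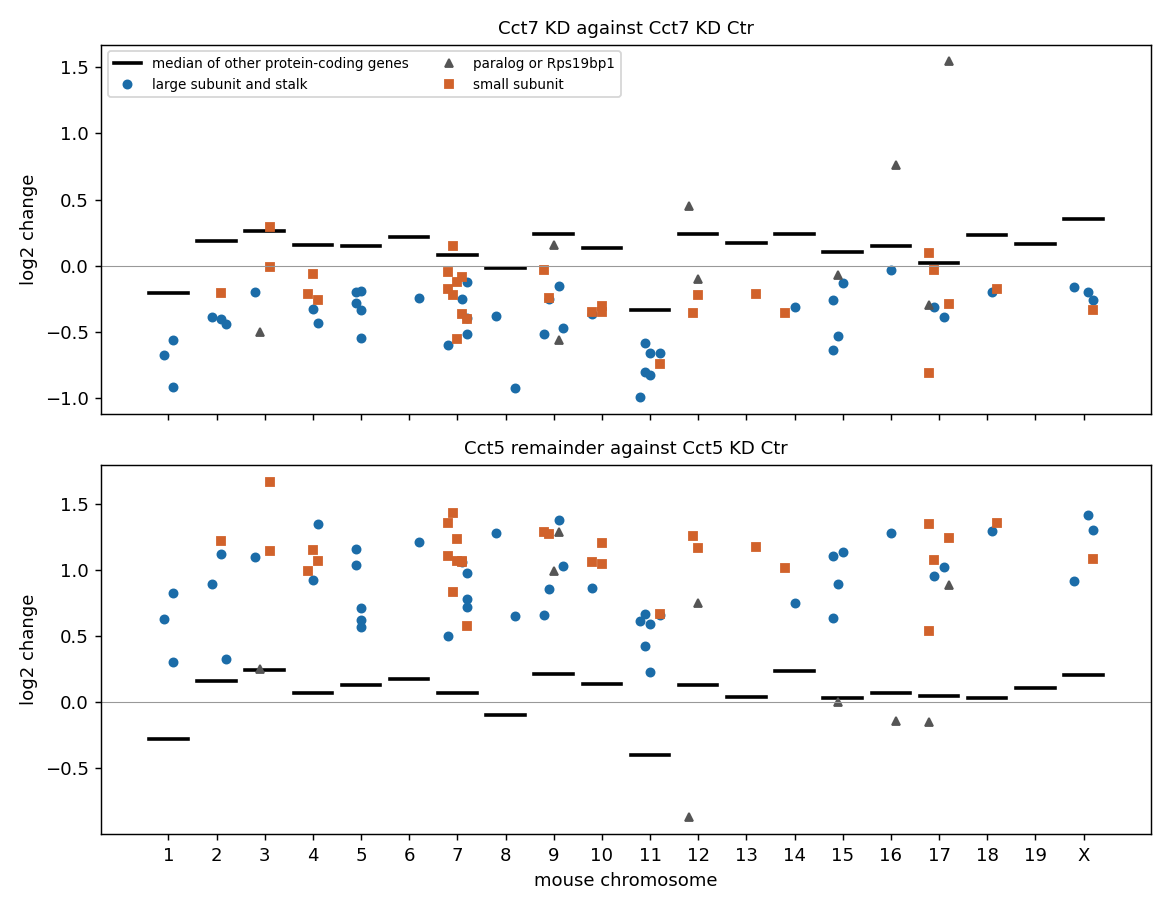
Log2 change of each ribosomal protein gene by mouse chromosome, in Cct7 KD (top) and the remainder (bottom), with the median of the other protein-coding genes of the chromosome as a black bar. Black bars are lowest on chromosome 11 in both panels, where the 7 ribosomal protein genes changed by -0.99 to -0.58 in Cct7 KD and by 0.23 to 0.67 in the remainder.

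The paralogs did not move as 1 group. Of the 8, Rpl3l, Rpl39l, Rpl10l and Rps27l rose in Cct7 KD, Rpl22l1 and Rpl7l1 fell, and Rpl36al and Rps27rt did not pass. After centring per chromosome Rps27l no longer passed in Cct7 KD (0.0075, limma adjusted p = 0.91). In the remainder Rps27l, Rps27rt, Rpl3l, Rpl36al and Rpl22l1 rose and Rpl10l, Rpl7l1 and Rpl39l fell. Rpl10l (ENSMUSG00000060499, chromosome 12, 66283379 to 66284401), a retrogene of the X-linked Rpl10 that takes over in male germ cells, was 37.5 and 41.7 in its control and 52.8 and 55.9 in Cct7 KD (log2 change 0.45, SE 0.0583, limma adjusted p = 0.00082), but 39.5 and 39.6 in the Cct5 control and 20.8 and 21.6 in the remainder (log2 change -0.87, SE 0.0319, limma adjusted p = 4.1e-06). Rpl39l (ENSMUSG00000039209, chromosome 16, 10170226 to 10174911), also known from testis, was 32.9 and 34.5 in its control and 57.8 and 57.8 in Cct7 KD (log2 change 0.76, SE 0.0332, limma adjusted p = 1.2e-05), and 39.1 and 38.1 against 36.3 and 33.7 in the remainder (log2 change -0.14, SE 0.0425, limma adjusted p = 0.025). Both are free of 100-base stretches found in other genes. Their difference between the 2 comparisons was -1.32 (limma adjusted p = 2.9e-06) and -0.90 (limma adjusted p = 5.6e-06), opposite in sign to that of the standard genes.

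Rpl3l (ENSMUSG00000002500, chromosome 17, 24727820 to 24736143), the heart and skeletal muscle form of Rpl3, was low everywhere: 0.906 and 1.24 in the Cct7 control, 4.43 and 5.69 in Cct7 KD, 1.11 and 0.962 in the Cct5 control and 3.05 and 2.51 in the remainder. It rose in both, with log2 changes of 1.54 and 0.89, and the rise was smaller in the remainder (difference -0.65, SE 0.183, limma adjusted p = 0.013). Rpl22l1 (ENSMUSG00000039221, chromosome 3, 28805436 to 28807424) was more abundant than Rpl22 in control cells. It was 467 and 509 in its control and 351 and 336 in Cct7 KD (log2 change -0.50, SE 0.0503, limma adjusted p = 0.00027), and 512 and 488 in the Cct5 control and 601 and 588 in the remainder (log2 change 0.25, SE 0.0293, limma adjusted p = 0.00044). The rise in the remainder became -0.012 after centring per chromosome. Rpl7l1, which acts in ribosome assembly, was 68.1 and 70.8 and 57.3 and 55.7 in control and Cct7 KD, and 77.0 and 76.7 and 69.8 and 69.0 in Cct5 KD Ctr and the remainder, a fall of 0.29 and of 0.15. Rps27l, a p53-induced relative of Rps27, went from 385 and 426 to 460.2 and 442 in Cct7 KD and from 424 and 425 to 854 and 839.6 in the remainder (log2 changes 0.15 and 1.00). Rpl36al was low in the controls (1.1 scaled FPKM), with 24.5% of its exon bases inside Gm49383. After centring per chromosome its rise in the remainder was 0.75 (SE 0.17).

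Set against the standard gene in the same library, 5 of 6 paralogs were at a lower ratio in the remainder than in any control library. The Rpl22l1 to Rpl22 ratio was 1.88 to 1.97 in the 4 controls, 1.81 and 1.79 in Cct7 KD, and 0.916 and 0.876 in the remainder, so that Rpl22 became the more abundant only in the remainder among the groups shown. The Rpl39l to Rpl39 ratio was 0.0612 to 0.0662 in controls, 0.122 and 0.121 in Cct7 KD, and 0.0231 and 0.0214 in the remainder. The Rpl10l to Rpl10 ratio was 0.0343 to 0.0354 in controls, 0.0510 and 0.0560 in Cct7 KD, and 0.00964 and 0.00997 in the remainder. For Rpl39 and Rpl10 the copy known from germ cells thus gained on its standard gene in Cct7 KD and lost in the remainder, with no overlap of groups. The ratio of Rps27l to Rps27 was 0.442 to 0.498 in controls, 0.422 and 0.428 in Cct7 KD, and 0.287 and 0.281 in the remainder.

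**Figure D4:**
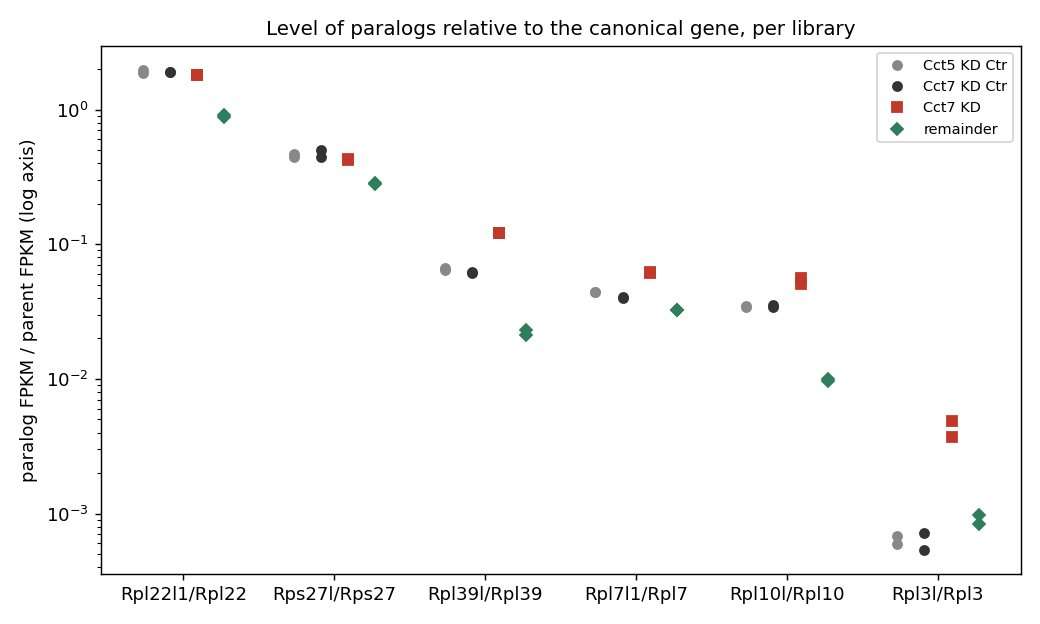
Ratio of paralog to standard gene FPKM in each library on a log axis, for 6 pairs, with 2 points per group. The remainder lies lowest for each pair except Rpl3l, and Cct7 KD lies highest for Rpl39l, Rpl7l1, Rpl10l and Rpl3l.

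Of the 85 tested genes, Rps19bp1 alone did not pass the test in either the remainder or the difference. Its protein is known as a regulator of SIRT1. It was 19.5 and 21.5 in its control and 19.1 and 19.8 in Cct7 KD (log2 change -0.068, SE 0.0545, limma adjusted p = 0.29), and 19.0 and 20.9 in the Cct5 control and 19.7 and 20.2 in the remainder (log2 change 0.0035, SE 0.0503, limma adjusted p = 0.95). Rps27rt, an intronless copy of Rps27, stood at 31.3 and 103 in Cct7 KD Ctr, so that 1 library held over 3 times the other. In Cct7 KD it was 43.4 and 34.0 and did not pass (log2 change -0.56, SE 0.529, limma adjusted p = 0.36), and it went from 37.7 and 42.9 to 79.3 and 125 in the remainder. Cct7 KD Ctr 2 stood apart more widely in copies of this kind: of 43 ribosomal protein pseudogenes with a control mean of at least 1, 26 were highest in that library, against 6, 7 and 4 in the other controls. Leaving out that library, 65 genes fell and 7 rose in Cct7 KD, and leaving out its partner 72 fell and 5 rose.

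Rps15a was measured beside a pseudogene of almost equal level. Of 72 named ribosomal protein pseudogenes in both tables, 38 could be tested in both comparisons, with medians of -0.42 in Cct7 KD and 0.90 in the remainder, near those of the genes. By contrast, 3 copies of Rps15a fell in both comparisons. Rps15a-ps7 (ENSMUSG00000081087, chromosome 2, 152185291 to 152185682) was 141 to 161 in the 4 controls, above Rps15a itself at 117 to 123, but 2.42 and 2.02 in Cct7 KD (log2 change -5.53, SE 0.0738, limma adjusted p = 1.1e-06) and 5.03 and 8.14 in the remainder (log2 change -4.41, SE 0.184, limma adjusted p = 6.4e-06). Rps15a-ps6 was 11.9 to 16.5 in controls, 1.15 and 2.01 in Cct7 KD and 4.52 and 3.46 in the remainder (log2 changes -2.56 and -1.54). Rps15a-ps5 was 5.01 to 9.23, 0.459 and 0.126 and 0.628 and 1.46 in the same order (log2 changes -2.78 and -1.67). These pseudogenes were singled out after their values were seen.

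The sequences show how close the copies are, as 60 coding bases of the reference genome, positions 101 to 160 counted from 1 at the start codon of Rps15a, with bases that differ between the gene and any of the 3 copies in capitals in the gene and in the copy that differs.
Rps15a: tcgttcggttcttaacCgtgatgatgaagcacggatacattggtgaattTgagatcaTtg
Rps15a-ps7: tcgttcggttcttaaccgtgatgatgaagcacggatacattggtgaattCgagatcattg
Rps15a-ps6: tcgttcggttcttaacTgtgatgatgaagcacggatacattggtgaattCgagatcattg
Rps15a-ps5: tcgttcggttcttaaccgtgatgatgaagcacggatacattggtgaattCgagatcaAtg
Over the coding sequence Rps15a-ps7 differed from Rps15a at 4 bases and lacked 1 (99.0% identity), and Rps15a-ps6 and Rps15a-ps5 differed at 5 each (98.7%). All 3 carry T150C, where the first letter is the gene's base. Rps15a-ps6 also has C117T and Rps15a-ps5 T158A within the window. Of the 100-base stretches of Rps15a, 28.5% occur in another gene. FPKM divides by the length of each copy, so these values cannot be added to a level of the family. The split of reads between these copies was not tested.

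**Figure D5:**
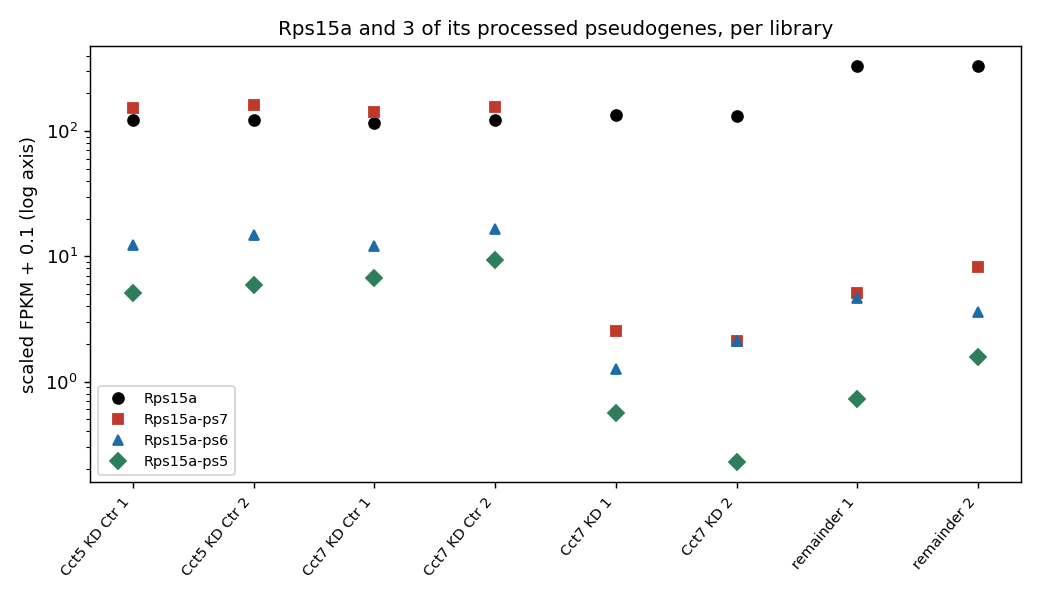
Scaled FPKM of Rps15a and 3 of its processed pseudogenes per library on a log axis, with 0.1 added. Rps15a-ps7 lies above Rps15a in the 4 controls and below it in Cct7 KD and the remainder.

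Genes with and without a TOP tract near the annotated start had similar medians. Annotated starts can lie some bases off the used ones, and tracts just before the start were counted as well. The split therefore cannot show whether the tract of the mRNA itself goes with the change. Standard genes with a tract within 5 bases of the annotated start numbered 27 and had medians of -0.30 in Cct7 KD and 1.00 in the remainder, and the 29 without one had -0.31 and 1.07. The rest of the 76 tested standard genes had no start site in the promoter sequences used and are not included. Rps10 and Rps27, both with a tract at the first base, fell by 0.81 and rose by 0.29 in Cct7 KD. Among paralogs with a tract, Rpl22l1 fell in Cct7 KD and Rps27l rose, and among those without one, Rpl10l and Rpl39l rose and Rpl7l1 fell. The rises of Rps27 and Rps27l did not hold after centring per chromosome (-0.10 and 0.0075, neither passed). Rps10 was low in controls (15.6), with 20.6% of its exon bases inside another gene.

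Other genes of the pathway were taken from lists. Among cytosolic ribosomal proteins with other names, Rack1, the WD40 protein of the small subunit, was 1029.8 and 1107 in its control and 621 and 641 in Cct7 KD (log2 change -0.76, SE 0.0457, limma adjusted p = 3.7e-05) and rose by 0.67 in the remainder. Fau, the ubiquitin-like fusion of a small subunit protein, changed by 0.00064 in Cct7 KD (limma adjusted p = 0.99) and rose by 1.43 in the remainder. Of 18 translation factors and partners whose mRNAs have a TOP tract, 17 fell and only Tpt1 rose in Cct7 KD (median -0.51). In the remainder 12 rose and 6 fell (median 0.24). Over all genes tested 36.2% fell and 45.1% rose in Cct7 KD, and 45% rose and 38.2% fell in the remainder. Eif4a2, an RNA helicase of initiation, changed by -1.28 and 0.62, Eef1a1, the main elongation factor, by -0.19 and 0.96, and Npm1, the nucleolar chaperone, by -0.93 and -0.74. In the test of the difference, the remainder's change exceeded that of Cct7 KD in 17 of the 18, against 35.2% of all genes tested.

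Of 8 chaperones dedicated to single ribosomal proteins, 5 fell and 1 rose in Cct7 KD, and 5 fell and 2 rose in the remainder. Over all genes 36.2% fell and 45.1% rose in Cct7 KD, and 38.2% fell and 45% rose in the remainder, and with 8 genes nothing is read from the list's count. Grwd1, which escorts RPL3, changed by -0.80 and -1.53. Heatr3, which brings RPL5 into the nucleus, changed by 0.23 and -1.52, and Aamp, a WD40 protein, by -0.49 and -0.83. Of 19 regulators of ribosomal protein expression, 12 fell and 4 rose in Cct7 KD, and 12 fell and 5 rose in the remainder (medians -0.28 and -0.29, against 0.07 and 0.06 over all genes). Mycn was 66.2 and 63.8 in its control and 3.63 and 3.85 in Cct7 KD, and 73.0 and 74.1 in the Cct5 control and 4.65 and 5.01 in the remainder (log2 changes -3.80 and -3.68). Myc changed by -1.39 and -3.15, and Larp1, the protein that binds TOP tracts, by -0.96 and -1.72. These 3 fell in both comparisons, and the list as a whole is not described by them. Of 77 mitochondrial ribosomal protein genes, 49 fell and 12 rose in Cct7 KD (median -0.33), and 42 fell and 15 rose in the remainder (median -0.18).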

How the data were processed

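FPKM per gene were deposited by the authors as a table for Cct5 (21055 entries) and another for Cct7 (20909), made with HTSeq on mm10 per the submitters' processing notes. No source used here gives the aligner, annotation, lengths, versions or filters. Repeated IDs (8 and 6) were left out, and symbols came from GENCODE vM21 on GRCm38, with 41 IDs unmatched. The remainder is Cct5 KD minus the fixed multiple of Cct7 KD, and could not be formed for 15 genes, none of them among the 86. Each column was scaled by the median of its ratios to the geometric mean of the 4 controls over 12706 genes: factors were 0.994 to 1.006 for controls, 1.07 and 1.07 for Cct7 KD, 1.60 and 1.61 for Cct5 KD, 0.362 and 0.362 for the remainder. A gene needed a mean of 1 FPKM in the groups compared and was tested with limma 3.58.1 (eBayes with trend, R 4.3.3) on log2(FPKM + 1), which understates changes of low genes. The fits were tested on simulated data. Alternatives were other scalings, pseudocount and filter, a replicate block, one fit of all groups and leaving out each library. The genes, lists and tests were chosen with earlier results of these data known. Named genes are the 5 largest rises, falls and differences each way, the 5 highest in controls, the stalk genes, Rpsa, Rpl5, Rpl11, every paralog and Rps19bp1, and in other lists up to 4 by p. Some genes chosen by this rule are not reported here. Rps4l, annotated as a pseudogene, is not counted among the paralogs. Promoter sequences are from RefSeq on GRCm38.p6. No counts were at hand, so depth was not used.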

Additional observations from a re-analysis of the deposited data

Results flagged for a closer look

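The change from control differed between the remainder and Cct7 KD, by limma's test of the difference itself, in 81 ribosomal protein genes with the remainder higher and 3 with it lower. SE and p-values of that test do not allow for the remainder being formed from the Cct7 KD columns. Values are the remainder's log2 change minus that of Cct7 KD. They were 1.85 for Rps27rt, 1.78 for Rpl22, 1.63 for Rps3 and 1.62 for Rpl39. Among the paralogs Rpl10l had -1.32, Rpl39l -0.90, Rpl3l -0.65 and Rpl7l1 0.15. For Rps27rt the value rests on 1 library of Cct7 KD Ctr that held 103 scaled FPKM where its partner held 31.3, and its SE was 0.685 (limma adjusted p = 0.04).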

How the results depend on the processing

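The directions of the 2 main patterns held under every alternative run: the median of the ribosomal protein genes stayed below that of all genes in Cct7 KD and above it in the remainder. Leaving out 1 library at a time, Cct7 KD had 54 to 72 genes lower and 4 to 7 higher, the remainder 81 higher in each case and 2 to 3 lower. The controls had 0 to 1 lower and 0 to 0 higher, the 1 without Cct7 KD Ctr replicate 1. With a common FPKM total 12 genes rose in Cct7 KD and 5 had a lower change in the remainder than in Cct7 KD. Fitting all groups together gave 1 lower and 2 higher gene between controls. Centring per chromosome left 3 higher in Cct7 KD. Of the 21 genes with under 20% shared 100-base stretches, 14 fell in Cct7 KD and 17 rose in the remainder, and in Cct5 KD 2 fell and 13 rose. Over all genes tested 36.2% fell in Cct7 KD and 45% rose in the remainder, and in Cct5 KD 37.8% fell and 45.2% rose. Off chromosomes 1, 8 and 11, 11 fell in Cct5 KD. As deposited, 0 fell and 85 rose in Cct5 KD.

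Without paralogs and Rps19bp1 the mean share of FPKM was 15.63% in Cct5 KD Ctr, 13.48% in Cct7 KD, 17.06% in Cct5 KD and 25.95% in the remainder. Over protein-coding genes other than mitochondrial ones it was 17.63% in Cct5 KD Ctr, 17.60% in Cct7 KD Ctr, 15.16% in Cct7 KD, 19.16% in Cct5 KD and 29.08% in the remainder.

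Of 1618 recomputed values of the 30 named genes, 23 turned direction, 22 came to pass the threshold and 42 ceased to. In Cct5 KD as deposited the log2 change turned to 0.31 for Rpl13, 0.33 for Rpl22l1, 0.21 for Rpl23a, 0.34 for Rpl26, 0.11 for Rpl27, 0.12 for Rpl7, 0.44 for Rpl7a, 0.28 for Rpl7l1, 0.43 for Rps10, 0.60 for Rps19bp1 and 0.66 for Rps3. With a common total Rps3 had 0.078 in Cct5 KD, Rpl27 -0.016 and Rps19bp1 -0.23 in the remainder. The difference turned to -0.31 for Rps19bp1 and -0.24 for Rpl7l1. In Cct7 KD Rplp2, Rps19, Rps2 and Rpsa turned to 0.025, 0.11, 0.12 and 0.12. Centring gave Rpl22l1 -0.012 and Rps19bp1 -0.15 in the remainder and Rps27 -0.10 in Cct7 KD. The cause was not tested.

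For knockdown libraries and the same-numbered libraries of their own control, deviations from group means correlated at -0.041 (Cct7 KD) and -0.0026 (Cct5 KD). With 2 libraries a group this cannot show whether they were paired. Same-numbered Cct5 KD and Cct7 KD libraries are linked by the relation given above. With the replicate block Cct7 KD had 64 lower and 5 higher, Cct5 KD 25 lower and 49 higher, the remainder and the difference each 3 lower and 81 higher, and the controls 0 and 0. For the remainder the correlation was -0.12, and crossed numbers gave 81 higher and 3 lower.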
